A study of Homo sapiens with 6 samples.

Results

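The genes of cholesterol and fatty acid synthesis are followed here in 6 bulk RNA libraries of the colon cell lines 1CT and 1CT-A. They form a list of 41 human genes, chosen by their known roles and with earlier results of these data known. All 41 symbols are present in the count files, which hold 24462 different symbols in all, and 39 of the 41 pass the filter on low counts and are among the 12514 genes tested. TM7SF2 and NPC1L1 do not pass it. 1CT is an immortalized human colonic epithelial progenitor line, labelled as wild type, and 1CT-A is its version depleted of wild type APC, labelled as a knockdown (KD). APC is the adenomatous polyposis coli gene, whose product restrains Wnt signalling. Each line is measured in 3 libraries, and the comparison asks which transcripts differ once APC is depleted. All 6 libraries come from untreated cells kept at 37 °C and 5% CO2 in the same medium, which holds EGF at 20 ng/ml, hydrocortisone at 1 µg/ml, insulin at 10 µg/ml, transferrin at 2 µg/ml, sodium selenite at 5 nM and 2% FBS. 1CT-A is 1 derived line, so APC depletion and any other difference between the lines cannot be told apart. The labels do not say whether the 3 libraries of a line are separate cultures, and the p-values then measure only the spread between these libraries.

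Cells build cholesterol from acetyl-CoA through the mevalonate steps, squalene and a long series of sterol intermediates, and they build fatty acids from the same acetyl-CoA through malonyl-CoA. The SREBP transcription factors turn on genes of both routes. They are held in the endoplasmic reticulum by SCAP and the INSIG proteins while sterols are plentiful, and they are carried to the Golgi and cleaved when sterols run low. The lining of the colon renews itself throughout life, and dividing cells need both kinds of lipid for new membranes.

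The libraries are QuantSeq 3′ libraries, in which a transcript is read near its 3′ end, and the values below are counts scaled to a common library total (CPM). A 1CT library holds 7788679 to 8452258 counts, and a 1CT-A library holds 11158108 to 12602988, which is 1.43 times as deep on average. The targeted gene APC is lower in the 1CT-A libraries, at 49.3, 43.8 and 46.6 CPM in the 1CT libraries and 31.5, 30.0 and 34.4 CPM in the 1CT-A libraries, with a log2 fold change of -0.58 (SE 0.09, adjusted p = 1.76e-04), where SE is the standard error. Of 12 epithelial and colonic markers, 7 have at most 3 counts in every library, and EPCAM, VIL1, MUC2 and CLDN3 have 0. The summed list reaches 13.7 to 17.6 CPM in 1CT, against 3.32 to 7.28 CPM in the depleted line. Most of it is the keratin KRT18, at 9.94, 13.2 and 10.5 CPM in 1CT and 3.23, 7.02 and 4.92 CPM in 1CT-A. KRT19 has 20, 27 and 34 counts in 1CT and 0 in every 1CT-A library. All 11 mesenchymal markers are counted, with a sum of 44985 to 53075 CPM in 1CT, against 22115 to 23501 CPM in the depleted line. Most of that sum is FN1, and the other 10 sum to 4748 to 5794 CPM against 4384 to 4694 CPM. Of the 11, 6 fall and 2 (COL3A1 and DCN) rise. The immune markers sum to 0.351 to 1.67 CPM and the endothelial markers to 0 to 0.514 CPM over the 6 libraries. With keratins at these low levels, the labelled epithelial identity is therefore not clearly seen in these markers. The part of the marker differences in the results below was not tested. In bulk libraries, fewer cells of a type and less RNA per cell cannot be told apart.

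Most genes of the list are higher in 1CT-A. Of the 39 tested, 25 (64.1%) rise and 2 (5.13%) fall at an adjusted p under 0.05, against 25% rising and 26% falling among all genes tested and 31.4% and 23.4% among the 8224 genes that average 10 CPM or more. Adjusted p-values here and below come from the quasi-likelihood test of edgeR and are adjusted over all 12514 genes by the Benjamini-Hochberg method. The median log2 fold change of the list is 0.37, compared with -0.01 for all genes tested and 0.06 for those averaging 10 CPM or more. The 2 genes that fall are the desaturase FADS3 and the elongase ELOVL1.

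**Figure D1:**
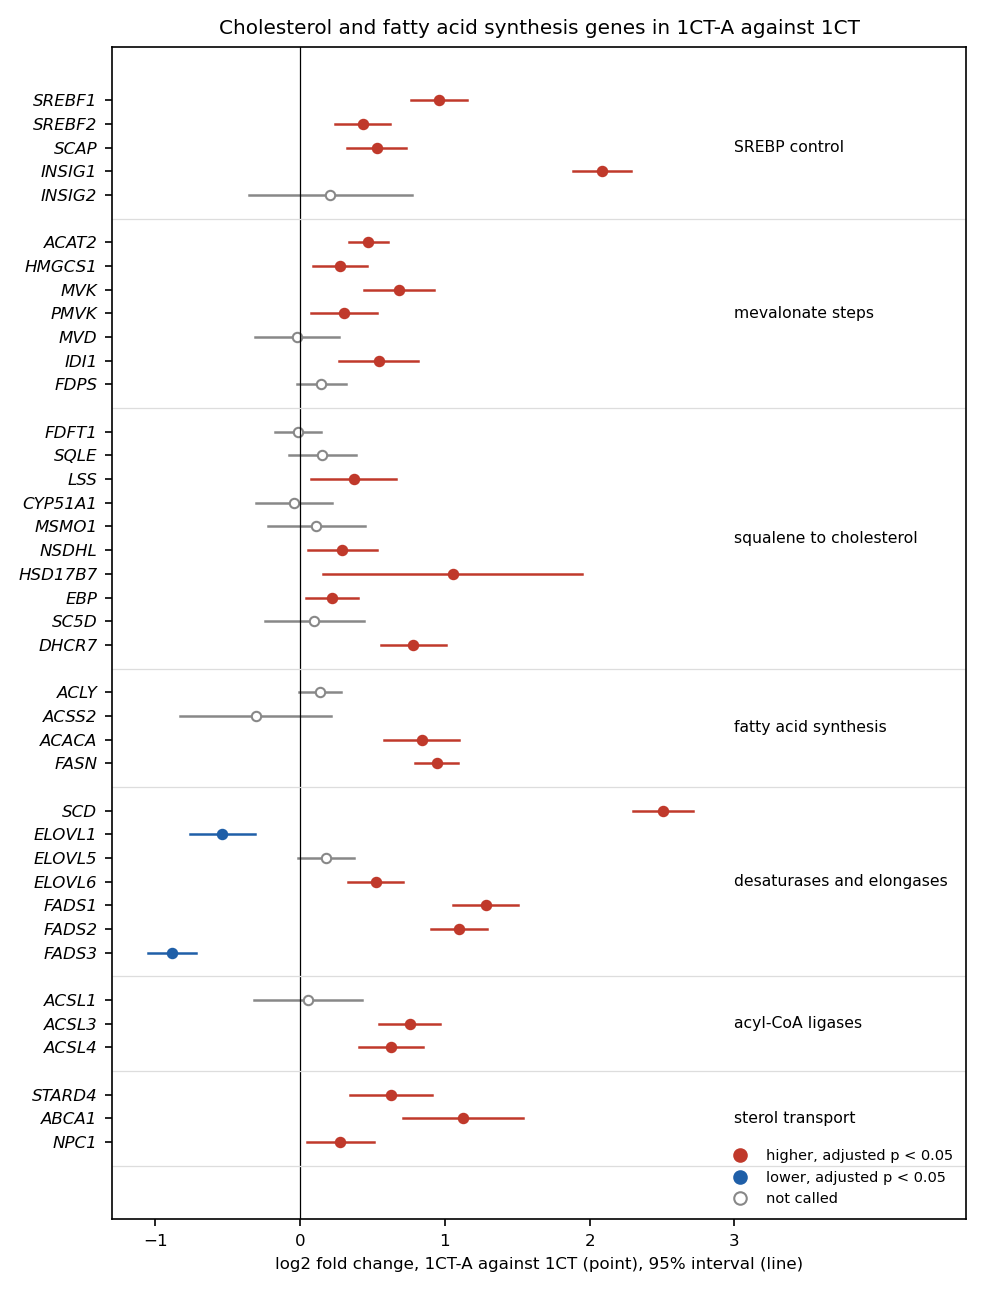
Log2 fold change between the lines (1CT-A over 1CT, x axis) for the 39 tested genes grouped by role (y axis), with points for the estimate, lines for the 95% interval, red for higher, blue for lower and open grey for not called at an adjusted p under 0.05. SCD at 2.51 and INSIG1 at 2.09 lie to the right of the others, and FADS3 at -0.89 and ELOVL1 at -0.54 are the called genes left of 0.

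By the stricter rule of a fold change of at least 2 with an unadjusted p under 0.01, 5 of the 39 genes are higher (INSIG1, SCD, FADS1, FADS2 and ABCA1) and 0 are lower, where 3.8% of all genes tested are higher and 9.6% lower. The libraries of the lines do not overlap for 28 genes that are higher in 1CT-A and 2 that are lower, against 31.8% and 27.9% of all genes tested. All 27 called genes are among them, and the other 3 are FDPS, ACLY and ELOVL5, whose differences are small. The coefficient of variation between libraries of a line has a median of 11.5% over the tested genes in 1CT and 5.33% in 1CT-A.

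**Figure D2:**
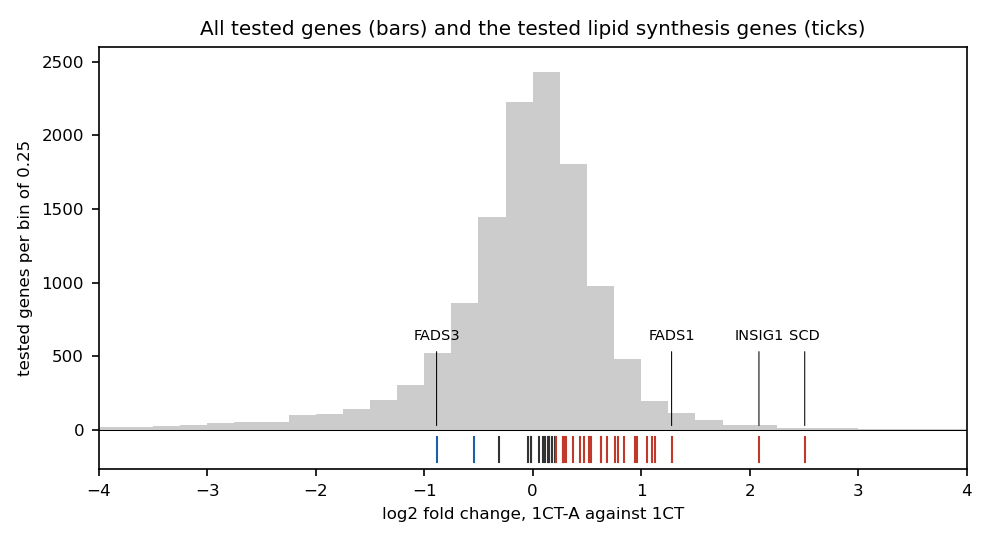
Histogram of the log2 fold changes of all 12514 tested genes in bins of 0.25 (grey bars, cropped at -4 and 4), with a tick below the axis for each of the 39 tested lipid synthesis genes (red higher, blue lower, black not called). The ticks have a median of 0.37, to the right of the median of all genes at -0.01.

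Added together, the 41 genes take 2543 ± 62.6 CPM in 1CT and 4057 ± 66.1 CPM in 1CT-A (SD, n = 3 each), a ratio of 1.60. SCD alone makes up 45.4% of the extra CPM, FADS1 8.98%, ACAT2 9.11% and FASN 7.55%. Without SCD the sum is 2402 ± 41.2 CPM in 1CT and 3228 ± 41.3 CPM in 1CT-A, a ratio of 1.34. The sum therefore leans on a single desaturase, while the higher level is spread over many genes when each is counted once.

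**Figure D3:**
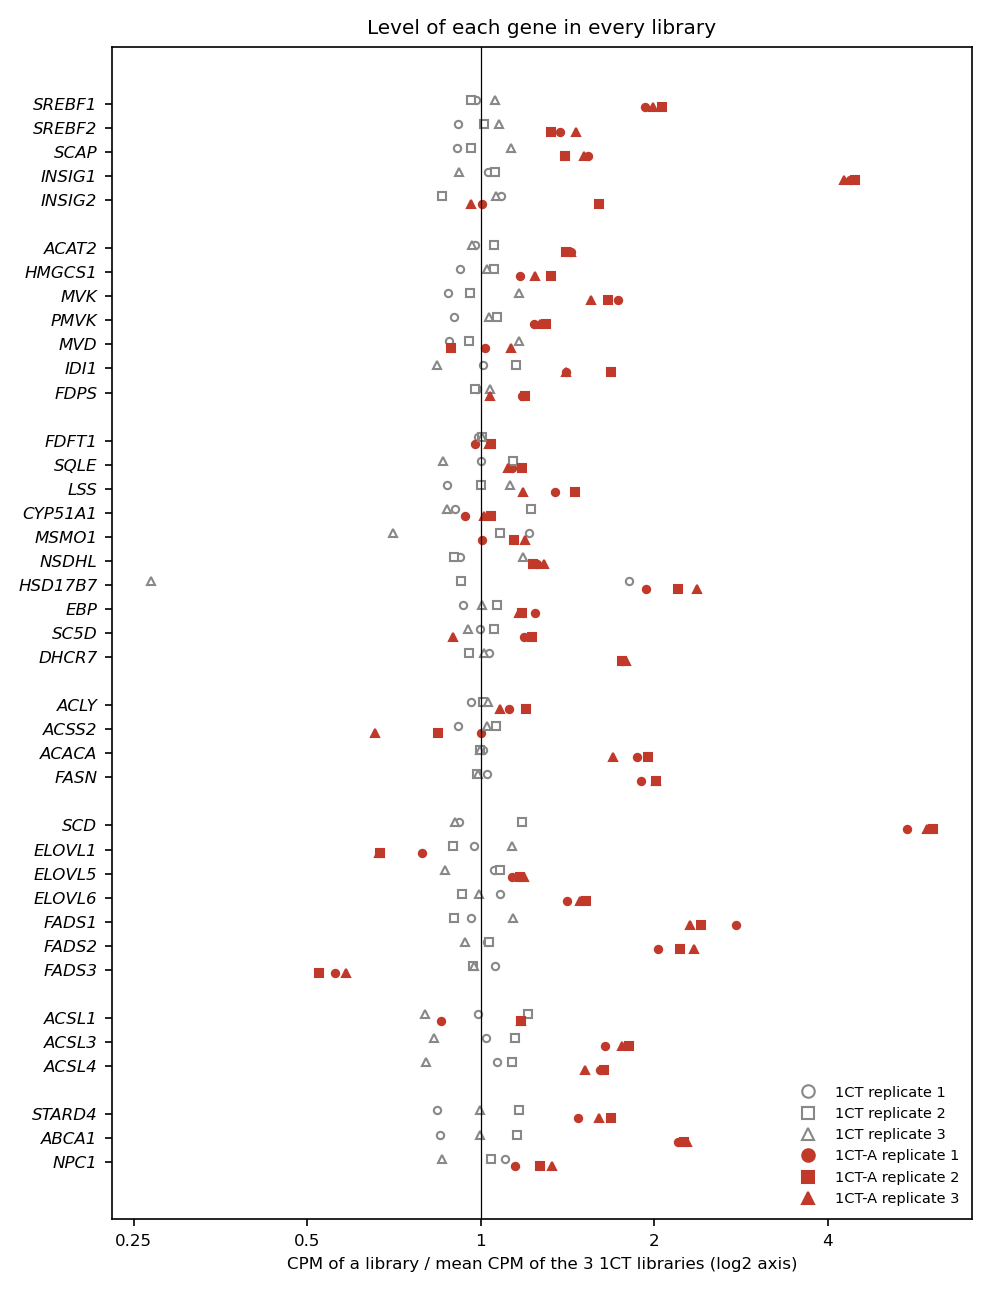
Level of each tested gene in every library, as its CPM divided by the mean CPM of the 3 1CT libraries (x axis, log2 scale), with open grey symbols for 1CT and red symbols for 1CT-A. The red symbols of INSIG1, SCD, FADS1, FADS2, SREBF1, FASN and ACACA lie well clear of the grey ones, while those of MVD, FDFT1, CYP51A1 and MSMO1 lie among them.

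Promoter windows show what the genes with the largest changes look like at their start. RefSeq windows on GRCh38.p14, which reach from 250 bases before to 50 bases after a transcript start, were matched for 37 of the 41 genes, all but ACAT2, FASN, FDFT1 and SQLE. INSIG1 and SCD are shown because they have the largest rises of the list, SREBF2 because it holds TCACNCCAC, FADS1 because it rises, and FADS3 because it falls. FADS1 and FADS3 also stand for genes of a single family that move in opposite directions. Each sequence is printed 5′ to 3′ on the strand of its gene. Capitals mark the motifs TCACNCCAC (the sterol regulatory element type), TCACGTGA (an E-box type that SREBP-1 can also bind) and CCAAT (the NF-Y type) on either strand, and no marked stretches overlap in the windows shown.
INSIG1 (chr7:155297628-155297927, plus strand): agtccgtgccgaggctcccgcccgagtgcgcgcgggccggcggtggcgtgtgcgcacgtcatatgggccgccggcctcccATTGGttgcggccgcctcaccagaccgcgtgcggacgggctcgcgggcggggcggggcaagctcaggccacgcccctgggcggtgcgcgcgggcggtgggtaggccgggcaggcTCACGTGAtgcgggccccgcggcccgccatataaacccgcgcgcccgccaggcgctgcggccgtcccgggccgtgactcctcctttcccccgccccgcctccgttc
SCD (chr10:100346983-100347282, plus strand): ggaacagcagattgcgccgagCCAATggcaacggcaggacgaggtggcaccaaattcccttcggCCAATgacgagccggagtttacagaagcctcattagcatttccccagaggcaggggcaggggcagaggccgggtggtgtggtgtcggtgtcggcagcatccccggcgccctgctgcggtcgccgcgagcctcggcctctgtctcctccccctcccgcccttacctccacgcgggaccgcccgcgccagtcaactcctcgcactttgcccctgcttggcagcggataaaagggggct
SREBF2 (chr22:41832855-41833154, plus strand): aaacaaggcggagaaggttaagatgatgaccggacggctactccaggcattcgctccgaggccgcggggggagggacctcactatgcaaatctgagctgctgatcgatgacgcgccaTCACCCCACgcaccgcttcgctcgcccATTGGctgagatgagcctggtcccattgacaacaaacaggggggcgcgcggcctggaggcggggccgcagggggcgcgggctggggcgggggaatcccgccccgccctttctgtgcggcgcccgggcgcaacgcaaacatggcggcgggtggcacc
FADS1 (chr11:61816954-61817253, minus strand): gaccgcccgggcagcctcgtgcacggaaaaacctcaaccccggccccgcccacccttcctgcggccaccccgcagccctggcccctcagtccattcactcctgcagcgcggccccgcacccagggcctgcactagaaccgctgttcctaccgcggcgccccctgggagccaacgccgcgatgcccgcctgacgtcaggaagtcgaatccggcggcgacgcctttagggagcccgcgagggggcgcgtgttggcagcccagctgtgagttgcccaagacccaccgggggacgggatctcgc
FADS3 (chr11:61891496-61891795, minus strand): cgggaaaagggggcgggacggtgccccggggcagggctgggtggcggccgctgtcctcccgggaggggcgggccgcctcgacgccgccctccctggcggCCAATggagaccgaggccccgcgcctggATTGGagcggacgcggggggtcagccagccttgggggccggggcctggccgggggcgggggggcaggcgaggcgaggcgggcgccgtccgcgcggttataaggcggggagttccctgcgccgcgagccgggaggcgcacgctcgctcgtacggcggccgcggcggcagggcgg

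TCACNCCAC occurs in the windows of 2 of the 37 genes, SREBF2 at position -133 from the start and ACSL1, which is 5.41% compared with 1.39% of the 27305 genes in the whole table. TCACGTGA, which was added to the search after the windows were seen, occurs in INSIG1 alone at position -56, which is 2.70% of the matched genes compared with 1.18% of all. CCAAT, a short motif common at many promoters, occurs in 27 of the 37 genes (73.0%) and in 39.7% of all genes. It is found in 15 of 23 matched genes that rise, in both genes that fall, in 8 of 10 that are not called and in both that were not tested. The GC box GGGCGG occurs in 34 of the 37 genes (91.9%) and in 48.3% of all genes. SCD holds CCAAT at positions -229 and -186, FADS3 at -151 and -123, and FADS1 has none in its window. A gene counts as holding a motif if any of its windows does. This gives the 37 genes 52 windows to search, against 35116 windows for the 27305 genes. Those 27305 genes are not limited to the genes tested here, so the shares are not compared with those of expressed genes. The motifs were searched on both strands, they do not count as binding sites, and no binding was measured here.

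Of the 5 genes that control SREBP, 4 rise and 0 fall, with a median log2 fold change of 0.53. INSIG1, which retains SCAP in the endoplasmic reticulum and is itself a target of SREBP, stands at 16.6, 17.0 and 14.8 CPM in the 1CT libraries and 70.4, 71.9 and 68.8 CPM in the 1CT-A libraries. Every 1CT-A library lies far above every 1CT library, and the log2 fold change is 2.09 (SE 0.09, adjusted p = 2.18e-09), which ranks 86 from the top of the 12514 genes. Its relative INSIG2, which has the same role, has 31, 24 and 28 counts in 1CT and 38, 62 and 41 in 1CT-A. These ranges overlap, and the log2 fold change is 0.21 (95% interval -0.35 to 0.77, adjusted p = 0.528), which leaves room for a decrease or for an increase of moderate size.

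SREBF1, the gene of SREBP-1 and mainly tied to fatty acid genes, is at 24.7, 24.3 and 26.7 CPM in the 1CT libraries and 48.7, 52.1 and 50.1 CPM in the 1CT-A libraries. The lines are cleanly apart, with a log2 fold change of 0.96 (SE 0.09, adjusted p = 1.86e-06). SREBF2, whose product SREBP-2 acts mainly on sterol genes, is at 57.4, 63.9 and 67.7 CPM in the 1CT libraries and 86.3, 83.2 and 92.1 CPM in the 1CT-A libraries. Its shift is smaller at 0.43 (SE 0.09, adjusted p = 0.00115), yet no 1CT library reaches the lowest 1CT-A library. SCAP, the escort of both factors, is at 71.1, 75.1 and 88.1 CPM in the 1CT libraries and 119.8, 109 and 118 CPM in the 1CT-A libraries, with a log2 fold change of 0.53 (SE 0.09, adjusted p = 4.03e-04). Here too the lines do not overlap.

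Of the 7 mevalonate genes, 5 rise, 0 fall and the median log2 fold change is 0.30. MVK, which phosphorylates mevalonate, has the largest change of the group at 25.8, 28.1 and 34.2 CPM in the 1CT libraries and 50.8, 48.7 and 45.6 CPM in the 1CT-A libraries. The log2 fold change is 0.68 (SE 0.11, adjusted p = 2.06e-04), and all 1CT-A libraries are higher. IDI1, which interconverts the isoprene units that later steps join, is at 19.8, 22.6 and 16.4 CPM in the 1CT libraries and 27.5, 33.0 and 27.5 CPM in the 1CT-A libraries, a log2 fold change of 0.54 (SE 0.13, adjusted p = 0.00287). Its 1CT libraries vary more than those of MVK relative to the gap between the lines, but none reaches 1CT-A. PMVK, the kinase that follows MVK, is at 18.1, 21.5 and 20.8 CPM in the 1CT libraries and 24.9, 26.2 and 25.5 CPM in the 1CT-A libraries, a small rise of 0.30 (SE 0.11, adjusted p = 0.0295). HMGCS1, which makes HMG-CoA, has 49.7 ± 3.43 CPM in 1CT and 61.8 ± 3.79 CPM in 1CT-A and a log2 fold change of 0.28 (SE 0.09, adjusted p = 0.0171). The last pair of the group is not called. MVD, the decarboxylase that gives isopentenyl diphosphate, has overlapping libraries and a log2 fold change of -0.02 (95% interval -0.31 to 0.27, adjusted p = 0.917), and FDPS, which makes farnesyl diphosphate, has 0.15 (95% interval -0.02 to 0.32, adjusted p = 0.140).

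ACAT2, the cytosolic thiolase that makes acetoacetyl-CoA, is at 318, 343 and 315 CPM in the 1CT libraries and 466, 457 and 466 CPM in the 1CT-A libraries. All 1CT-A libraries are higher, with a log2 fold change of 0.47 (SE 0.06, adjusted p = 4.49e-05). The 3′ end of ACAT2 lies over that of TCP1, a chaperonin subunit, with 454 exon bases shared on opposite strands in the GENCODE annotation, and the use of strand in the counting is not given in the sources used here. ACAT2 has 0.852 to 0.872 counts for every count of TCP1 in all 6 libraries, and TCP1 has nearly the same log2 fold change, 0.49 (SE 0.06, adjusted p = 2.82e-05). The reads of ACAT2 and TCP1 therefore cannot be told apart. Leaving ACAT2 out, 24 of 38 tested genes rise. FDPS shares 693 exon bases with RUSC1-AS1 on the opposite strand, and its counts are 1.01 times those of RUSC1-AS1 in every library, so these values cannot be assigned to FDPS either. MVK shares 225 bases with MMAB, a cobalamin adenosyltransferase. The counts of MVK are 1.08 to 1.32 times those of MMAB in 1CT and 1.38 to 1.69 times in 1CT-A, and MMAB rises less, by a log2 fold change of 0.31 (SE 0.09, adjusted p = 0.0158). SREBF1 likewise shares 556 exon bases with RAI1 on the opposite strand, with 1.56 to 1.76 counts per count of RAI1 in 1CT and 2.72 to 3.34 in 1CT-A. CYP51A1, STARD4 and IDI1 share 108, 124 and 643 bases with AKAP9, STARD4-AS1 and IDI2-AS1 on opposite strands. AKAP9 averages 63.5 CPM in 1CT and 36.8 CPM in 1CT-A, above CYP51A1 at 29.6 CPM in each line. STARD4-AS1 averages 4.75 CPM in 1CT and 3.54 CPM in 1CT-A, and IDI2-AS1 0.981 and 0.651 CPM. The part of those reads was not tested.

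**Figure D4:**
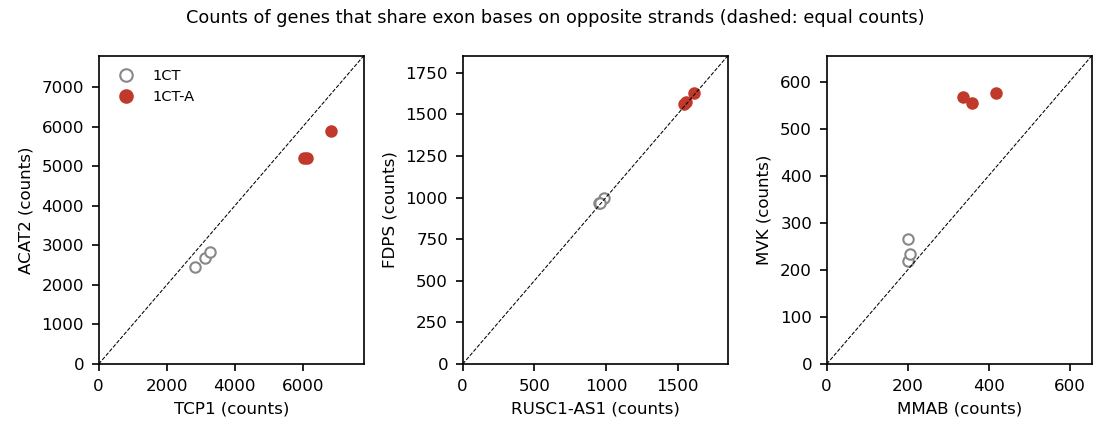
Counts of ACAT2, FDPS and MVK (y axes) against counts of the genes they share exon bases with on the opposite strand (x axes), 1 point per library, open for 1CT and red for 1CT-A, with a dashed line at equal counts. The points of FDPS lie on the dashed line and those of ACAT2 on a line of 0.852 to 0.872 counts per count of TCP1, while those of MVK lie above the dashed line, by ratios of 1.08 to 1.32 in 1CT and 1.38 to 1.69 in 1CT-A.

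From squalene to cholesterol the picture is more mixed, with 5 of 10 tested genes higher, 0 lower and a median log2 fold change of 0.19. DHCR7, which reduces dehydrocholesterol to cholesterol in the last step of a branch of the pathway, is at 15.9, 14.6 and 15.5 CPM in the 1CT libraries and 27.0, 26.9 and 27.4 CPM in the 1CT-A libraries. The 1CT-A libraries are tightly grouped and wholly above 1CT, with a log2 fold change of 0.78 (SE 0.10, adjusted p = 4.17e-05). LSS, which closes the rings of lanosterol, is at 12.8, 14.6 and 16.4 CPM in the 1CT libraries and 19.6, 21.2 and 17.3 CPM in the 1CT-A libraries, a log2 fold change of 0.37 (SE 0.13, adjusted p = 0.0354). NSDHL, a sterol dehydrogenase that removes a carbon attached to the ring, is at 32.7, 31.9 and 42.0 CPM in the 1CT libraries and 44.5, 43.7 and 45.6 CPM in the 1CT-A libraries, a log2 fold change of 0.29 (SE 0.11, adjusted p = 0.0412). For both, the highest 1CT library comes close to the lowest 1CT-A library. EBP, which shifts the ring double bond, has 59.9 ± 4.08 CPM in 1CT and 71.6 ± 2.56 CPM in 1CT-A and a log2 fold change of 0.22 (SE 0.08, adjusted p = 0.0420).

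HSD17B7, a ketosteroid reductase of the same steps, is counted at a low level, with 22, 11 and 3 counts in 1CT and 31, 36 and 43 in 1CT-A. Its 1CT libraries scatter widely, from 3 to 22 counts, and the log2 fold change is 1.05 (SE 0.41, adjusted p = 0.0478). Without replicate 3 of 1CT, the library with 3 counts, the log2 fold change is 0.64 with an adjusted p of 0.123, and without replicate 1 of 1CT it is 1.79. The near-identical pseudogene HSD17B7P2 has 9, 7 and 12 counts in 1CT and 12, 14 and 13 in the deeper 1CT-A libraries. Scaled to the library totals, it averages 1.15 CPM in 1CT and 1.11 CPM in 1CT-A. How reads were split between the copies is not given in the sources used here. TM7SF2, a sterol reductase, has 5, 9 and 6 counts in 1CT and 8, 6 and 17 in 1CT-A and failed the filter.

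The enzymes on either side of squalene show no call. FDFT1, squalene synthase, is at 82.2 ± 0.689 CPM in 1CT and 83.6 ± 2.96 CPM in 1CT-A with a log2 fold change of -0.01 (95% interval -0.17 to 0.14, adjusted p = 0.889). SQLE, squalene epoxidase and a step that often limits the flow, is at 26.0 ± 3.62 CPM in 1CT and 29.7 ± 0.854 CPM in 1CT-A, with 0.15 (95% interval -0.08 to 0.39, adjusted p = 0.257). CYP51A1, which demethylates lanosterol, has -0.04 (95% interval -0.30 to 0.22, adjusted p = 0.798). MSMO1, a methylsterol oxidase, has 0.11 (95% interval -0.22 to 0.45, adjusted p = 0.569), and SC5D, a sterol desaturase, has 0.10 (95% interval -0.24 to 0.44, adjusted p = 0.626). The intervals of all 5 end below the 95% interval of DHCR7 (0.56 to 1.01), the firmest large rise of the group. All 5 overlap the 95% intervals of LSS (0.08 to 0.66), NSDHL (0.05 to 0.53) and EBP (0.04 to 0.40). A difference from those called genes is therefore not shown. Over both sterol groups, 10 of the 17 tested genes rise, where 25% of all genes tested rise, and the median log2 fold change is 0.28. The 10 include ACAT2, whose reads cannot be told apart from those of TCP1. They also include HMGCS1, PMVK, LSS, NSDHL, HSD17B7 and EBP, which lose the call in some alternative fits given below.

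Of the 4 fatty acid synthesis genes 2 rise and 0 fall, with a median log2 fold change of 0.49, and the split lies between the first and the later enzymes. FASN, the synthase that builds palmitate, is at 120.3, 116 and 116 CPM in the 1CT libraries and 222, 236 and 237 CPM in the 1CT-A libraries, a log2 fold change of 0.94 (SE 0.07, adjusted p = 1.88e-07). ACACA, the carboxylase that makes malonyl-CoA for it, is at 11.8, 11.7 and 11.7 CPM in the 1CT libraries and 22.0, 22.9 and 19.9 CPM in the 1CT-A libraries, a log2 fold change of 0.84 (SE 0.12, adjusted p = 7.01e-05). They are 1.92-fold and 1.79-fold higher, and neither has overlapping libraries. The enzymes that supply acetyl-CoA are not called. ACLY, which cleaves citrate, is at 414 ± 14.1 CPM in 1CT and 468 ± 24.7 CPM in 1CT-A, with a log2 fold change of 0.14 (95% interval -0.00 to 0.28, adjusted p = 0.0979). ACSS2, which activates acetate, has 29, 33 and 30 counts in 1CT and 42, 36 and 31 in the deeper 1CT-A libraries. It averages 3.76 CPM in 1CT and 3.13 CPM in 1CT-A, with a log2 fold change of -0.31 (95% interval -0.83 to 0.22, adjusted p = 0.311).

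Desaturases and elongases hold both the largest rise and both falls of the list, with 4 of 7 genes higher, 2 lower and a median log2 fold change of 0.52. SCD, which turns saturated fatty acids into monounsaturated ones, is at 130.1, 167 and 128 CPM in the 1CT libraries and 779, 864 and 843 CPM in the 1CT-A libraries. Its lowest 1CT-A library exceeds its highest 1CT library several times over, and the log2 fold change is 2.51 (SE 0.10, adjusted p = 7.37e-10), which ranks 57 from the top of all genes tested. FADS1 and FADS2 are the front-end desaturases that make long polyunsaturated fatty acids. FADS1 is at 87.6, 81.7 and 103 CPM in the 1CT libraries and 252, 219.5 and 209 CPM in the 1CT-A libraries, a log2 fold change of 1.28 (SE 0.10, adjusted p = 4.96e-07). FADS2 is at 28.6, 28.9 and 26.2 CPM in the 1CT libraries and 56.6, 61.7 and 65.5 CPM in the 1CT-A libraries, a log2 fold change of 1.10 (SE 0.09, adjusted p = 6.23e-07). The libraries of the lines are apart for both. FADS3, the third gene of the cluster, known for the desaturation of sphingoid bases, goes the other way at 158, 145 and 145 CPM in the 1CT libraries and 83.3, 78.3 and 87.2 CPM in the 1CT-A libraries. It falls in all 1CT-A libraries, by a log2 fold change of -0.89 (SE 0.08, adjusted p = 9.58e-07).

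FADS1 and FADS2 share 490 exon bases on opposite strands, and FADS2 shares 49 bases with FEN1, a DNA replication and repair nuclease, on its own strand. FEN1 itself is at a mean of 159 CPM in 1CT and 309 CPM in 1CT-A. FADS1 has 2.83 to 3.95 counts for each count of FADS2 in 1CT and 3.20 to 4.44 in 1CT-A, so the ratio is not fixed as it is for ACAT2 and TCP1. How much of either value comes from shared reads was not tested. The elongases also divide. ELOVL6, which lengthens palmitate to stearate, has 35.9 ± 2.75 CPM in 1CT and 53.0 ± 2.02 CPM in 1CT-A, a log2 fold change of 0.52 (SE 0.09, adjusted p = 2.93e-04). ELOVL1, which makes very long saturated chains, has 135 ± 16.5 CPM in 1CT and 95.7 ± 9.68 CPM in 1CT-A, a log2 fold change of -0.54 (SE 0.10, adjusted p = 8.20e-04). ELOVL5, which lengthens polyunsaturated chains, is not called at 0.18 (95% interval -0.01 to 0.37, adjusted p = 0.109).

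Of the acyl-CoA ligases, which activate fatty acids for all later use, 2 of 3 rise and 0 fall, with a median log2 fold change of 0.63. ACSL3, found at lipid droplets and the endoplasmic reticulum, is at 94.2, 106 and 76.6 CPM in the 1CT libraries and 151, 167 and 162 CPM in the 1CT-A libraries, a log2 fold change of 0.76 (SE 0.10, adjusted p = 3.42e-05). ACSL4, which prefers arachidonic acid, is at 145, 154 and 109 CPM in the 1CT libraries and 219.7, 223 and 206 CPM in the 1CT-A libraries, a log2 fold change of 0.63 (SE 0.10, adjusted p = 2.23e-04). In both genes replicate 3 of 1CT is the lowest library, and the lines do not overlap. ACSL1, a ligase prominent in liver and fat, shows overlapping libraries and a log2 fold change of 0.05 (95% interval -0.32 to 0.42, adjusted p = 0.812).

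All 3 tested genes of sterol transport rise, with a median log2 fold change of 0.63. ABCA1, the pump that exports cholesterol and a target of the sterol-sensing LXR receptors, is at 2.84, 3.86 and 3.34 CPM in the 1CT libraries and 7.35, 7.55 and 7.62 CPM in the 1CT-A libraries. The values are low but tight in 1CT-A, with a log2 fold change of 1.12 (SE 0.19, adjusted p = 3.29e-04). STARD4, a soluble sterol carrier controlled by SREBP-2, is at 12.4, 17.3 and 14.8 CPM in the 1CT libraries and 21.9, 24.9 and 23.8 CPM in the 1CT-A libraries, a log2 fold change of 0.63 (SE 0.13, adjusted p = 0.00138). NPC1, which moves cholesterol out of lysosomes, is at 30.9, 29.2 and 24.0 CPM in the 1CT libraries and 32.1, 35.5 and 37.3 CPM in the 1CT-A libraries, a log2 fold change of 0.28 (SE 0.11, adjusted p = 0.0448). The gap between the lines for NPC1 is narrow, as replicate 1 of either line lies near the other line. NPC1L1, the sterol uptake transporter of the small intestine, has 2, 2 and 0 counts in 1CT and 1, 1 and 1 in 1CT-A. It was not detectable at this depth, where 3 counts correspond to 0.355 to 0.385 CPM in a 1CT library and 0.238 to 0.269 CPM in a 1CT-A library.

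Of the 27 called genes, 20 are called in every alternative fit, 18 of them higher and 2 lower, and 7 that rise lose the call in at least 1 alternative fit. The 7 are HMGCS1, PMVK, LSS, NSDHL, HSD17B7, EBP and NPC1, all but NPC1 sterol synthesis enzymes. The call of HMGCS1 is lost when replicate 1 of 1CT or replicate 2 or 3 of 1CT-A is left out (adjusted p = 0.05002 to 0.0773), and that of PMVK without replicate 1 of 1CT or any one 1CT-A library (0.0578 to 0.120). LSS loses it without replicate 1 or 2 of either line (adjusted p = 0.0667 to 0.133), and NSDHL without these or replicate 3 of 1CT-A (0.0733 to 0.152). EBP depends on replicate 1 of 1CT and on each 1CT-A library (adjusted p = 0.0725 to 0.157), and NPC1 on replicates 2 and 3 of either line (0.0574 to 0.155). HSD17B7 loses the call without any one library other than replicate 1 of 1CT (adjusted p = 0.0692 to 0.123). With all 6 libraries kept, all 7 also lose the call under upper-quartile normalization, and all but HMGCS1 under DESeq2. These rises are small next to those of INSIG1 or SCD, apart from HSD17B7 with its low counts. INSIG1, SREBF1, SREBF2, SCAP, ACAT2, MVK, IDI1, DHCR7, FASN, ACACA, SCD, FADS1, FADS2, ELOVL6, ACSL3, ACSL4, STARD4 and ABCA1 are the 18 that stay higher in every fit. FDPS gains a call without replicate 3 of 1CT (adjusted p = 0.0434), as does ACLY (adjusted p = 0.0214), which is also called with library size only (adjusted p = 0.0338) and without a filter on low counts (adjusted p = 0.0399).

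Genes of neighbouring lipid pathways are called about as often as all genes tested, though more of them fall with upper-quartile normalization. Of 97 genes in 7 further lists, 86 were tested, 21 (24.4%) rise and 24 (27.9%) fall, compared with 25% and 26% over all genes, with a median log2 fold change of -0.12. With upper-quartile normalization, 18 of them rise and 35 fall, where 2681 of all 12514 genes rise and 3661 fall. The proteins that process and degrade SREBP and its partners number 15, of which 4 rise, 1 falls and the median is -0.02. SEC24A, a coat protein of the vesicles that carry SCAP, falls by a log2 fold change of -0.55 (SE 0.11, adjusted p = 0.00136), and PAQR3, a Golgi anchor of SCAP, is higher by 0.69 (SE 0.26, adjusted p = 0.0427). PAQR3 has 42, 48 and 18 counts in 1CT and 90, 69 and 96 in 1CT-A, and its call is lost in 6 alternative fits (adjusted p = 0.0529 to 0.121), replicates 1 and 3 of either line left out among them.

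The other sterol and isoprenoid enzymes have 4 of 8 genes higher (50%), 2 lower (25%) and a median of 0.37, close to that of the list itself. Among all genes tested, 25% are higher and 26% lower. LBR, a lamin receptor that is also a sterol reductase of the same kind as TM7SF2, is at 52.5, 60.4 and 47.8 CPM in the 1CT libraries and 148, 155 and 159 CPM in the 1CT-A libraries, a log2 fold change of 1.48 (SE 0.09, adjusted p = 3.15e-08). FAXDC2, a putative sterol oxidase, has 17, 19 and 16 counts in 1CT and 3, 4 and 18 in 1CT-A, a log2 fold change of -1.61 (SE 0.48, adjusted p = 0.0135). Replicate 3 of 1CT-A stands apart from the other 2, and the adjusted p is 0.0540 without replicate 1 of 1CT-A and 0.0593 without replicate 2. Of 6 tested LXR and efflux genes 2 rise (33.3%) and 0 fall, with a median of 0.21. These are NR1H3, the gene of LXR alpha, with 0.68 (SE 0.15, adjusted p = 0.00249), and LPCAT3, a phospholipid remodelling enzyme and LXR target, with 0.63 (SE 0.10, adjusted p = 2.11e-04).

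Cholesterol storage and trafficking has 3 of 10 genes higher (30%) and 4 lower (40%), with a median of -0.15. Among all genes tested, 25% are higher and 26% lower. NPC2, the lysosomal partner of NPC1, falls by a log2 fold change of -0.76 (SE 0.13, adjusted p = 2.59e-04). GRAMD1B, a sterol transfer protein, has 24, 16 and 14 counts in 1CT and 2, 1 and 1 in 1CT-A. Summed over the libraries it is 19.4-fold lower in 1CT-A, with an exact 95% interval of 7.14 to 73.6 that covers counting error only. Other genes of fatty acid synthesis and elongation have 4 of 19 higher (21.1%) and 6 lower (31.6%), with a median of -0.19. ELOVL2, an elongase of polyunsaturated chains, is at 3.08, 4.23 and 3.98 CPM in the 1CT libraries and 24.8, 24.6 and 24.7 CPM in the 1CT-A libraries. It has the largest rise of any lipid gene listed here, with a log2 fold change of 2.68 (SE 0.15, adjusted p = 2.03e-08). ACSS3, a mitochondrial ligase for short acids, has 18, 11 and 9 counts in 1CT and 1, 0 and 2 in 1CT-A, which is 18.2-fold lower in 1CT-A by the same measure (5.76 to 91.9).

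Fatty acid oxidation has 3 of 16 genes higher (18.75%), 5 lower (31.25%) and a median of -0.17, against 25% higher and 26% lower among all genes tested. HADH, a dehydrogenase of the mitochondrial cycle, rises by a log2 fold change of 0.71 (SE 0.12, adjusted p = 3.39e-04), and CPT1C, a carnitine transferase relative, falls by -1.01 (SE 0.23, adjusted p = 0.00279). Glycerolipid synthesis and lipid droplets have 1 of 12 genes higher, 6 lower and a median of -0.30, where 25% of all genes tested are higher and 26% lower, and the difference from the other lists was not tested. LPIN3 and LPIN2 are phosphatases that make diacylglycerol. LPIN3 is at 53.1 ± 8.12 CPM in 1CT and 26.5 ± 1.73 CPM in 1CT-A, a log2 fold change of -1.04 (SE 0.12, adjusted p = 9.17e-06), and LPIN2 is at 38.6 ± 0.988 CPM in 1CT and 20.7 ± 0.981 CPM in 1CT-A, a log2 fold change of -0.94 (SE 0.09, adjusted p = 2.63e-06). No library of 1CT-A reaches the lowest 1CT library for either gene.

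**Figure D5:**
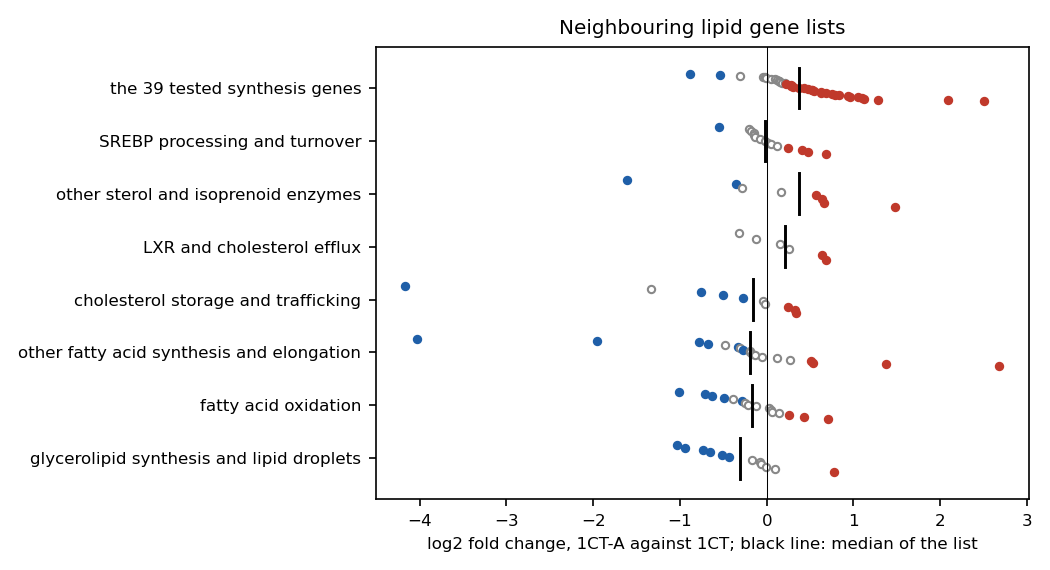
Log2 fold change between the lines (1CT-A over 1CT, x axis) for the tested genes of the list and of 7 neighbouring lipid lists (y axis), 1 point per gene, red for higher, blue for lower and open grey for not called, with a black line at each median. The list has its median at 0.37 and glycerolipid synthesis and lipid droplets at -0.30.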

How the data were processed

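RNA of 3 1CT and 3 1CT-A samples is measured by QuantSeq, with 500 ng of RNA put into each library. For every library the authors deposited a file of counts, whole numbers of reads for each gene symbol that were not normalized. The submitters' processing notes name Bowtie2, edgeR and hg19 without versions or roles, and the counting tool, its use of strand and the annotation are not given in the sources used here. Each file has 25737 entries, and counts of the 286 symbols entered repeatedly (1.46% of all counts, none of them a gene of the list) were added together. CPM uses the total of each library. The counts are fitted in R 4.3.3 with edgeR 4.0.16, after TMM scaling (factors 0.975 to 1.02) and the filterByExpr filter (minimum count 10). The quasi-likelihood test has the cell line as its sole term, with Benjamini-Hochberg adjusted p-values over the 12514 genes. Fold changes are 1CT-A against 1CT. Since exact permutation of 3 against 3 libraries gives no two-sided p under 0.1, single genes are tested by the model alone. The per-gene test of the study was not run, and its thresholds of 2-fold and unadjusted p under 0.01 were applied to the edgeR output. Replicates differ by more than counting noise (3.11 to 9.00 in chi-square divided by its degrees of freedom), so no library is a copy. Replicate 3 of 1CT stands apart, with 9.00 and 7.54 against the other 1CT libraries. The remaining 1CT pair has 3.80, and the pairs of 1CT-A have 3.11 to 4.56. As a level of background, the 378 olfactory receptor genes sum to 4.00 ± 0.566 CPM in 1CT and 1.56 ± 0.138 CPM in 1CT-A. Alternatives were other size factors (those of DESeq2, library size, upper quartile), other filters, DESeq2 1.42.0, limma-voom (limma 3.58.1), a replicate block, an adjusted p under 0.01 and each library left out. The scripts were tested on simulated data. All genes of the list are named, with values in every library for up to 4 called genes of each role, those with the largest log2 fold change, and for genes with at most 3 counts in every library. Of each further list, up to 2 called genes are named by the same measure. The genes and lists were chosen with earlier results of these data known. The count without ACAT2, the sum without FN1 and the count ratios of GRAMD1B and ACSS3 were added after the values were seen. Promoter windows are from RefSeq on GRCh38.p14 and exon overlaps from GENCODE on GRCh38, not from the build of the counts, so they describe the annotation only.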

Additional observations from a re-analysis of the deposited data

How the results depend on the processing

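The number of list genes called higher, 25 with TMM, is 25 with the size factors of DESeq2, 26 with library size only, 18 with upper-quartile normalization, 26 without a filter, 21 with at least 10 counts in every library, 19 with DESeq2, 25 with limma-voom and 18 at an adjusted p under 0.01. It runs from 18 to 25 with a library left out, the lowest without replicate 2 of 1CT-A. Among all 12514 genes, 3131 are higher with TMM, 3147 with DESeq2 size factors, 3450 with library size only and 2681 with upper-quartile normalization. Limma-voom gives 3174, and an adjusted p under 0.01 gives 2223. Without a filter 3674 of 19169 genes are higher, and 2804 of 11252 with at least 10 counts in every library. DESeq2 gives 2822 of 15140, and fits with a library left out give 2597 to 3252. The number of list genes called lower is 2 in each of these fits, where 2448 to 3661 of all genes are lower. The number of list genes past 2-fold is 5 to 7. Over 545 refitted values of single genes, 494 keep their side of the threshold, 47 lose the call, 4 gain it and 0 called genes change sign. The number of neighbouring lipid genes called runs from 16 to 22 higher and from 19 to 35 lower. The median of all genes tested is -0.01 with TMM, 0.03 with library size only and -0.06 with the upper quartile. With TMM-scaled CPM, 4 of 82 mean levels move by more than 1 SD.

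The deviations of same-numbered libraries from the mean of their line have correlations of -0.161, 0.220 and -0.139 over 8224 genes. With 3 libraries per line these values are not independent. They cannot settle whether same-numbered libraries were handled together, and the labels give only the number. With a replicate block, 23 list genes are higher and 2 lower, and 19 neighbouring genes are higher and 25 lower. Of all 12514 genes, 2993 are higher and 3098 lower under the block. EBP (adjusted p = 0.0745) and NPC1 (adjusted p = 0.0668) lose their calls under the block, and the correlations of different numbers run from -0.290 to 0.345. Depth limits TM7SF2, NPC1L1 and HSD17B7, and their counts in 1CT come from shallower libraries than those in 1CT-A.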
